A study of Homo sapiens with 4 samples.

Results

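The genes that maintain chromosome ends were examined in HEK293 cells. The set held 10 genes, listed by symbol, out of 17217 genes with a name on the array. These were TERT and DKC1 of the telomerase enzyme, the 6 shelterin genes TERF1, TERF2, TERF2IP, TINF2, ACD and POT1, and ATRX and DAXX, a chromatin remodeller and its partner histone chaperone. All 10 were found on the array, each as 1 RefSeq accession with 3 probes, so that 30 probes stand behind the values. RNA came from 4 biological replicates of 1 group, untreated HEK293 cells, which are human embryonic kidney cells transformed with adenovirus DNA and long kept in culture. Each replicate was a separate plate with its own extraction, and its RNA was labelled with Cy3 and hybridised to a single-colour NimbleGen array.

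Telomerase adds the telomeric repeat to chromosome ends. TERT is its reverse transcriptase, the RNA TERC is its template, and dyskerin, the product of DKC1, holds that RNA stable as it does the box H/ACA RNAs that guide pseudouridine formation. Shelterin coats the repeat and keeps the end from being treated as a DNA break. TERF1 and TERF2 (TRF1 and TRF2) bind double-stranded repeat, TERF2IP (RAP1) rides on TERF2, TINF2 (TIN2) bridges the complex, and ACD (TPP1) joins it to POT1, which binds the single-stranded overhang. ATRX and DAXX load the histone variant H3.3 at telomeres, and loss of either is common in cells that maintain telomeres by recombination and not by telomerase. HEK293 cells are a customary laboratory source of telomerase activity.

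Values are log2 probe signals, and a gene's level is log2 of the mean of its 3 probes on the linear scale. With 1 group in the series, the question for each gene was whether its message lay above the level taken as zero expression. This baseline, set as the study's methods set it, came from seminal protein genes on the same array. It was their mean plus 2 SD. A gene was called detected when its distance, the level minus the baseline, averaged more than 0 across the 4 arrays. The baselines of replicates 1 to 4 were 9.47, 9.94, 10.69 and 10.32, with a mean of 10.10 ± 0.52 log2 units (SD, n = 4). It rested largely on 2 of the 10 matched control genes. AFG2A (SPATA5) and SPATA13 had mean levels of 9.97 and 9.72, while the levels of the other 8 ran from 6.05 to 7.72. Probes differ in affinity, so a distance says whether a gene stood above the baseline, not how much of its transcript a cell holds compared with another gene.

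HEK293 cells contained detectable message for 9 of the 10 genes, against 52.7% of all named genes (9074 of 17217). The exception was TERT. Above the baseline on all 4 arrays were 7 of the 10, against 45.0% of all genes. The moderated limma test, one-sided and adjusted by Benjamini-Hochberg over all 17217 genes, called 9 of the 10, against 45.9% of all genes. On the 4 arrays it gave every gene the same standard error, 0.351, so its p-values do not measure the spread of a single gene. The median distance of the 10 genes was 2.47 log2 units and that of all genes 0.26. Without replicate 1, 2, 3 or 4 in turn the set still had 9 detected genes, against 50.6%, 52.3%, 54.3% and 53.6% of all genes, and 7 to 9 past the limma test, against 43.5%, 43.4%, 47.2% and 44.9%. With a stricter baseline of 3 SD 7 of the 10 were detected and 5 passed, against 39.1% and 28.6% of all genes.

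**Figure D1:**
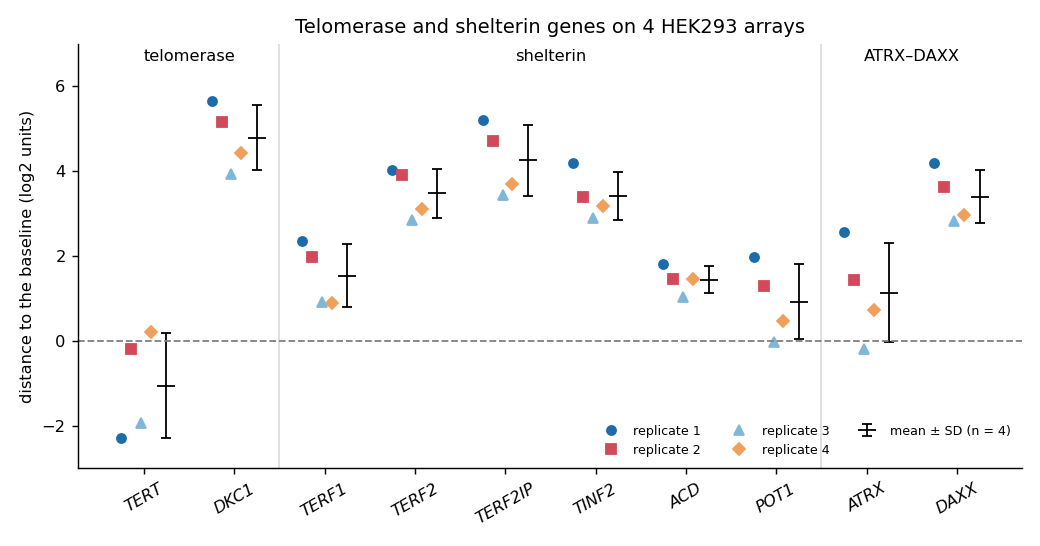
Distance of each gene to the baseline (vertical axis, log2 units) on replicates 1 to 4, with the mean ± SD of the 4 arrays in black and the baseline as a dashed line at 0. TERT lies below the line on 3 of 4 arrays, POT1 and ATRX fall just below it on replicate 3, and the other 7 genes lie above it on every array.

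The telomerase subunits TERT and DKC1 stood on opposite sides of the baseline. The sequences around their starts are given because MYC, MAX and SP1, described further on, are known to bind the motifs marked in them. They are the RefSeq windows on GRCh38.p14 from 250 bases before to 50 bases after the gene's start, 5′ to 3′ on the gene's strand, with capitals marking the E-box CACGTG and the GC box GGGCGG on either strand.
TERT, chr5:1295019-1295318, minus strand: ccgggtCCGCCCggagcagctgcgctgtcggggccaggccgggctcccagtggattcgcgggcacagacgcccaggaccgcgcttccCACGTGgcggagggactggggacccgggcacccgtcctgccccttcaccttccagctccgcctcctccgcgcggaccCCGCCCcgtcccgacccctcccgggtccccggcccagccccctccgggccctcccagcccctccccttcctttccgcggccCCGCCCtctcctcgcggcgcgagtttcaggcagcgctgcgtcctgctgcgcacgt
DKC1, chrX:154762614-154762913, plus strand: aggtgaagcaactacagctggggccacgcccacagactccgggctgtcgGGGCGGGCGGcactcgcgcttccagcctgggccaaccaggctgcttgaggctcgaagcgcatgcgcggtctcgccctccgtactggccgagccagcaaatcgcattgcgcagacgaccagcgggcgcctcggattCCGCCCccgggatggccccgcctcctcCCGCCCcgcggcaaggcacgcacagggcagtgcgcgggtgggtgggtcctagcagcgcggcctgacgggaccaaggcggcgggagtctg

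The TERT window held 1 whole E-box, which begins 163 bases before the start, and 3 GC boxes, which begin 244, 86 and 5 bases before it. The window ends in the letters cacgt, so an E-box that crosses its end would not be counted. The DKC1 window held no E-box and 4 GC boxes, a pair of which overlap by 2 bases. Of all 35116 windows in the table, 7.26% held an E-box and 45% held a GC box. Windows were listed for 6 of the 10 genes. Among these the E-box was found in TERT alone, while TERF2IP, TINF2, ACD and POT1 each had 1 or 2 GC boxes per window. ATRX, DAXX, TERF1 and TERF2 had no window in the table. A match to these letters is a description of the sequence and does not show that a factor binds there.

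TERT message was not detectable above the baseline. Replicates 1 to 4 gave levels of 7.18, 9.75, 8.76 and 10.52. Replicates 2 and 4 were high and replicates 1 and 3 low, and only replicate 4 exceeded its baseline, by 0.20 log2 units. The mean distance was -1.05 ± 1.24 (SD, n = 4), so TERT lay below the baseline by less than the spread between arrays, and the limma adjusted p was 1. It was -0.64 without replicate 1 and -1.47 without replicate 4. On the other hand TERT exceeded 7 of the 10 control genes on replicate 1, 9 on replicate 2, 8 on replicate 3 and all 10 on replicate 4. A mean below this baseline therefore does not show that the message is absent. The result depends on how the baseline is set. With olfactory receptor genes as controls, where 71.4% of all genes were detected and 66.3% passed the test, TERT stood at 1.03 (limma adjusted p = 0.00495). Without AFG2A and SPATA13, where 74.0% of all genes were detected and 68.6% passed, it stood at 1.28 (limma adjusted p = 2.21e-04). The limma test draws the variance of each gene towards that of all genes. These p-values therefore do not measure the spread of TERT alone, which was among the largest.

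No other gene of the set varied as much between arrays. The SD of the TERT level was 1.44 log2 units, and only 0.848% of all genes had a larger one. The other 9 genes had SDs of 0.14 to 0.64, and the median over all genes was 0.42. The TERT probes moved together. Probe 1, numbered by the order of the probe identifiers, read 7.96, 10.41, 9.0 and 11.54 on replicates 1 to 4. Probe 2 read 7.10, 10.05, 9.40 and 10.27, and probe 3 read 5.64, 7.42, 6.89 and 7.53. All 3 probes put the arrays in the same order, with replicate 1 lowest, then 3, then 2, and replicate 4 highest. A common order of the 4 arrays in all 3 probes was found for 1.88% of the 23999 targets with 3 probes, and among the 10 genes for TERT alone. Levels on replicates 2 and 4 that both exceeded those on replicates 1 and 3 were found for 18.5% of all genes, and among the 10 for TERT alone. Probes 1 and 2 lay above the baseline on 2 arrays and 1 array, and probe 3 on none.

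DKC1 gave a high signal on every array. Its level was 15.12, 15.11, 14.62 and 14.74 on replicates 1 to 4, close to the top of the scale, which ended at 15.99. The arrays differed little and all lay far above their baselines. The mean distance was 4.79 ± 0.77 log2 units (SD, n = 4, limma adjusted p = 6.49e-41). All 3 probes were above the baseline on all 4 arrays, at mean distances of 4.73, 4.95 and 4.65. Whether the spots were saturated could not be examined without raw intensities.

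By the study's baseline HEK293 cells had message for the full shelterin complex. With a baseline of 3 SD TERF1, ACD and POT1 did not pass the limma test. All 6 genes were detected and passed the limma test, with mean distances from 0.93 to 4.26 log2 units, and on every array 5 of them exceeded the baseline. POT1 was the exception, and the genes are given here from the double-stranded to the single-stranded end of the complex.

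TERF2, which protects the end from non-homologous joining, had levels of 13.49, 13.86, 13.54 and 13.43 on replicates 1 to 4. The arrays differed little, and the mean distance was 3.48 ± 0.58 (SD, n = 4, limma adjusted p = 1.96e-22). Its partner TERF2IP read 14.68, 14.65, 14.13 and 14.02, at a mean distance of 4.26 ± 0.84 (SD, n = 4, limma adjusted p = 7.45e-33). Every probe of both genes was above the baseline on every array. Probe 3 of TERF2IP stood apart on replicate 3, at 11.83 against at least 13.73 elsewhere.

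TERF1, which binds the same repeat and limits telomere lengthening, had levels of 11.82, 11.93, 11.62 and 11.21. Its mean distance of 1.54 ± 0.74 (SD, n = 4, limma adjusted p = 1.57e-05) came from 2 of its 3 probes. Probe 1 averaged 2.75 log2 units above the baseline, probe 2 averaged 0.77, and probe 3 averaged -1.66 and was below the baseline on all 4 arrays. The probes spanned 4.41 log2 units on average, against a median span of 1.67 over all targets. TERF1 was therefore detected above the spread between arrays, but not by every probe. With a baseline of 3 SD it stood at 0.22 and did not pass (limma adjusted p = 0.767).

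TINF2, the hub of shelterin, had levels of 13.67, 13.33, 13.59 and 13.51 and the smallest SD of the 10 genes, 0.14 log2 units. It stood 3.42 ± 0.56 above the baseline (SD, n = 4, limma adjusted p = 8.61e-22), with all 3 probes above it on every array. ACD, which also recruits telomerase to the end, read 11.28, 11.39, 11.73 and 11.79. Its distance was 1.44 ± 0.32 (SD, n = 4, limma adjusted p = 5.35e-05). Probe 2 of ACD was above the baseline on all 4 arrays, and probes 1 and 3 fell below it on replicate 3, by 0.30 and 0.25. With a baseline of 3 SD the distance of ACD was 0.13 (limma adjusted p = 0.987).

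POT1, the single-strand binding protein, was the shelterin gene nearest to the baseline. Its levels were 11.44, 11.23, 10.66 and 10.79 on replicates 1 to 4. It was above the baseline by 1.98, 1.29 and 0.47 on replicates 1, 2 and 4 and at -0.03 on replicate 3. The mean distance was 0.93 ± 0.89 (SD, n = 4, limma adjusted p = 0.00967), about the size of the spread between arrays. The call was lost without replicate 1, at 0.58 (limma adjusted p = 0.108), and without replicate 2, at 0.80 (limma adjusted p = 0.075). It was also lost when log2 probe values were averaged, at 0.51 (limma adjusted p = 0.173). Probes 1 and 2 averaged 1.51 and 1.31 above the baseline, while probe 3 averaged -2.30 and was below it on every array.

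**Figure D2:**
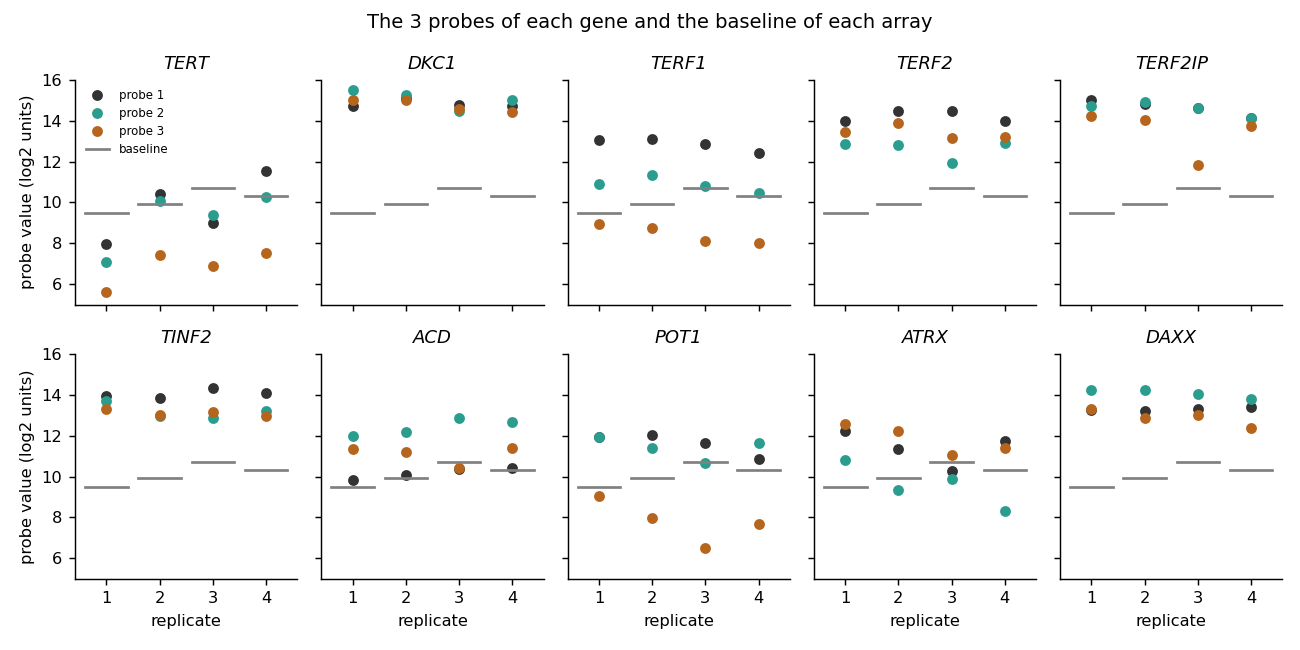
Log2 value of each probe (points, coloured by probe number) on replicates 1 to 4 for the 10 genes, with the baseline of each array as a grey bar. The probes of DKC1, TERF2, TERF2IP, TINF2 and DAXX all lie above the bars, while 1 probe of TERT, TERF1 and POT1 lies below them on all 4 arrays.

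The chaperone DAXX was well above the baseline and the remodeller ATRX was near it. DAXX read 13.66, 13.56, 13.52 and 13.29 on replicates 1 to 4, with an SD of 0.16. Its distance was 3.40 ± 0.63 (SD, n = 4, limma adjusted p = 1.41e-21), and all 3 probes were above the baseline on every array. ATRX read 12.04, 11.38, 10.49 and 11.07. Replicate 1 was the highest, and replicate 3 lay 0.20 below its baseline. The mean distance of ATRX was 1.14 ± 1.17 (SD, n = 4, limma adjusted p = 0.00148), no larger than the spread between arrays. Without replicate 1 it was 0.66 and no longer passed (limma adjusted p = 0.0694). The arrays also fell into pairs that share a distribution of values. On replicates 1 and 2 alone ATRX stood at 2.00 and POT1 at 1.63, and on replicates 3 and 4 alone at 0.27 and 0.22 (limma adjusted p = 0.50 and 0.559). Probes 1 and 3 of ATRX averaged 1.29 and 1.70 above the baseline, and probe 2 averaged -0.50.

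Of the 30 probes, 20 were above the baseline on all 4 arrays, 7 on 1 to 3 arrays and 3 on none. Among all probes on the array 34.3% were above on all 4. Distances moved with the baseline. They were largest on replicate 1, which had the lowest baseline, for 9 of the 10 genes and for 69.7% of all genes. They were smallest on replicate 3, which had the highest baseline, for 8 of the 10 and for 58.2% of all genes. TERT was the gene among the 10 with its smallest distance on replicate 1.

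**Figure D3:**
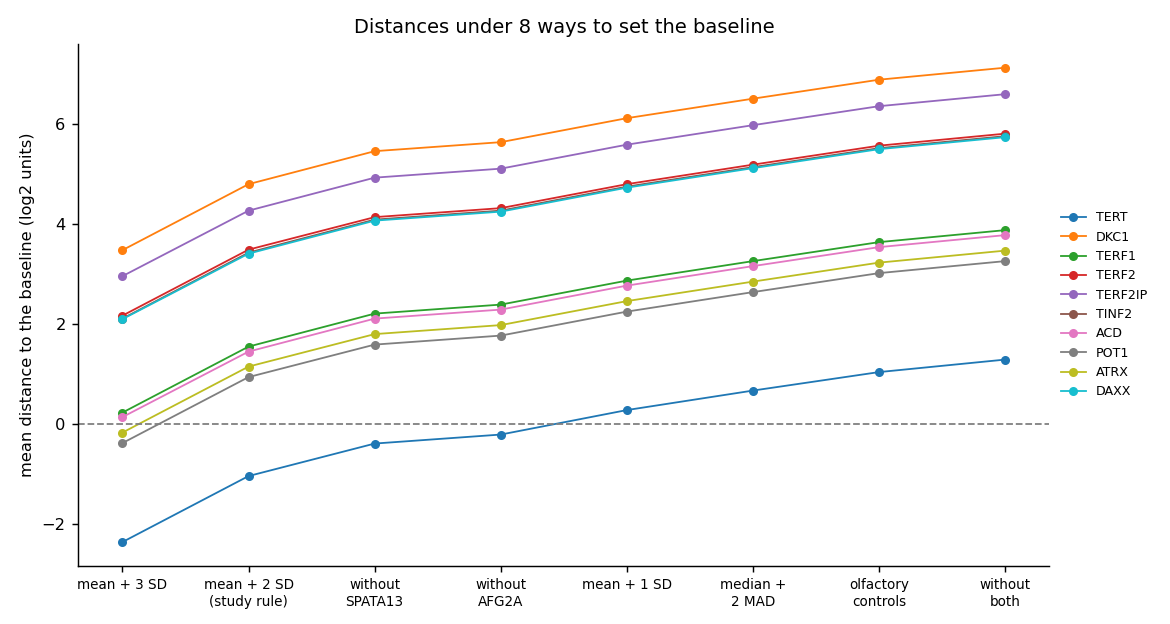
Mean distance of each of the 10 genes (vertical axis, log2 units) under 8 ways to set the baseline, ordered from the highest baseline to the lowest. Only TERT changes from below to above the dashed line as the baseline falls, at 0.27 with 1 SD, and only POT1 and ATRX change from above to below it, with 3 SD.

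Genes that build and steer telomerase were largely detected. Of 13 such genes 12 were matched, and TERC, the RNA subunit, was not. Detected were 11 of 12, all of them on all 4 arrays and past the limma test, where the shares of all genes were 52.7%, 45.0% and 45.9%. The median distance was 3.03 log2 units, against 0.26 over all genes. The dyskerin partners NHP2, GAR1 and NOP10 stood at 4.22 ± 0.69, 2.53 ± 0.81 and 2.33 ± 1.43 (SD, n = 4 for each). NHP2 had 4 of its 6 probes above the baseline on each array, and with averaged log2 probe values it stood at 2.46, beside 2.46 for GAR1 and 2.54 for NOP10. The assembly factors SHQ1 and NAF1 stood at 3.61 ± 0.71 and 1.79 ± 0.64 (SD, n = 4 for each), and the AAA+ ATPases RUVBL1 and RUVBL2 at 4.61 ± 0.84 and 3.81 ± 0.46 (SD, n = 4 for each). WRAP53 (TCAB1), which brings telomerase to Cajal bodies, stood at 3.53 ± 0.75 (SD, n = 4). For the RNA-processing enzymes PARN and TGS1 the distances were 4.49 ± 0.57 and 2.35 ± 0.53 (SD, n = 4 for each). The exception was PINX1, a TERF1-binding inhibitor of telomerase, at -0.42 ± 0.58 (SD, n = 4) and above the baseline on replicate 2 alone. Without replicate 3 it was at -0.16. TEP1, a vault and telomerase-associated protein, stood at 0.89 ± 0.35 (SD, n = 4, limma adjusted p = 0.0126). Its call was lost without replicate 2 (0.88, limma adjusted p = 0.0502) or replicate 4 (0.82, limma adjusted p = 0.0746).

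Genes that copy and trim telomere ends were detected in 9 of 11 cases, all 9 on all 4 arrays, with a median of 3.23 log2 units, and 8 passed the limma test, against 52.7%, 45.0% and 45.9% of all genes. STN1 of the CST complex, which limits telomerase and primes the complementary strand, stood at 3.23 ± 0.55 (SD, n = 4). Its partner CTC1 lay at the baseline, at -0.01 ± 0.90 (SD, n = 4), with distances of -0.37, 1.26, -0.83 and -0.08 on replicates 1 to 4, and TEN1 was not matched. CTC1 was above the baseline without replicate 1, 3 or 4, by 0.11, 0.27 and 0.02. The polymerase alpha subunit POLA1 and the primase PRIM1 stood at 4.00 ± 0.51 and 1.73 ± 0.49, and the nucleases EXO1, FEN1 and DCLRE1B (Apollo) at 4.42 ± 0.85, 4.34 ± 0.60 and 2.07 ± 0.59 (SD, n = 4 for each). The helicase RTEL1, which unwinds the telomere loop, was below the baseline on all 4 arrays, at -1.32 ± 0.74 (SD, n = 4). SMARCAL1, an annealing helicase, was detected at 0.68 ± 0.56 (SD, n = 4) without passing the test (limma adjusted p = 0.0575), and passed without replicate 3 (0.90, limma adjusted p = 0.0183).

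Proteins that act beside shelterin were detected in 16 of 18 cases, 15 of them on all 4 arrays and 15 past the test, with a median of 1.97 log2 units. The same calls held for 52.7%, 45.0% and 45.9% of all genes. The tankyrases TNKS and TNKS2, which release TERF1 from the telomere, stood at 1.95 ± 0.58 and 2.63 ± 0.67 (SD, n = 4 for each). RIF1, the helicase BLM and the telomere-binding zinc finger protein ZBTB48 (TZAP) stood at 2.61 ± 0.61, 3.31 ± 0.74 and 1.84 ± 0.32 (SD, n = 4 for each). The Ku subunits XRCC5 and XRCC6 stood at 4.23 ± 0.74 and 5.25 ± 0.69 (SD, n = 4 for each). In the MRE11 complex NBN stood at 1.07 ± 0.78, RAD50 at 0.75 ± 0.32 and MRE11 at -0.10 ± 0.34 (SD, n = 4 for each). NBN and RAD50 were above the baseline on all 4 arrays. MRE11 exceeded the baseline on replicate 1 alone and was at 0.02 without replicate 4. RAD50 passed narrowly (limma adjusted p = 0.0359) and failed without replicate 1, 2 or 4, at 0.64, 0.70 and 0.88 (limma adjusted p = 0.0693, 0.121 and 0.0535). The nuclease scaffold SLX4 was at -0.47 ± 0.52 (SD, n = 4). FBXO4, a ubiquitin ligase subunit for TERF1, was at 0.44 ± 0.86 (SD, n = 4, limma adjusted p = 0.222) and passed without replicate 3 (0.75, limma adjusted p = 0.0481). Its targets disagreed, and with the higher of them it stood at 1.15 (limma adjusted p = 0.00161).

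Genes of the H3.3 pathway in which ATRX and DAXX act, and of the PML nuclear bodies that hold DAXX, were detected in 12 of 13 cases, 11 on all 4 arrays and 11 past the test, with a median of 3.17 log2 units, beside 52.7%, 45.0% and 45.9% of all genes. UBN1 was not matched. The H3.3 genes H3-3A and H3-3B stood at 4.90 ± 1.09 and 2.93 ± 1.05, the other H3.3 chaperone HIRA at 3.67 ± 0.26, the histone-binding protein DEK at 4.25 ± 0.68 and the heterochromatin proteins SETDB1 and CBX5 at 3.37 ± 0.57 and 3.00 ± 0.41 (SD, n = 4 for each). PML, the scaffold of the bodies, stood at 0.90 ± 0.30 (SD, n = 4, limma adjusted p = 0.0123). Of its 24 probes 11, 9, 10 and 10 were above the baseline on replicates 1 to 4. PML failed without replicate 4 (0.85, limma adjusted p = 0.0633) and stood at 0.14 when log2 probe values were averaged (limma adjusted p = 0.687). SP100, another constituent of the bodies, was at -1.12 ± 1.44 (SD, n = 4). Its level was 9.86, 7.53, 10.53 and 8.03 on replicates 1 to 4, low on replicates 2 and 4 where TERT was high. The share of all genes with this split was not counted. The neuronal markers NEFM and MAP2, described further on, were also low on replicates 2 and 4. ASF1A was at 0.47 ± 1.03 (SD, n = 4, limma adjusted p = 0.184) and passed without replicate 3 (0.92, limma adjusted p = 0.0157).

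The genes known to act on TERT transcription were all detected, 13 of 13, with 12 of them on all 4 arrays, all 13 past the limma test and a median of 1.99 log2 units. Of all genes 52.7% were detected, 45.0% on all 4 arrays, and 45.9% passed. With a baseline of 3 SD 10 of the 13 were detected, against 39.1% of all genes. MYC and MAX, which bind the E-box as a dimer, stood at 4.45 ± 1.13 and 3.61 ± 0.40 (SD, n = 4 for each). SP1, which binds the GC box, stood at 3.62 ± 0.48 (SD, n = 4). MXD1, the repressor that competes with MYC for MAX, stood at 1.37 ± 0.98 and CTCF at 1.76 ± 0.77 (SD, n = 4 for each). E2F1, a cell cycle factor, stood at 1.65 ± 0.85 (SD, n = 4). The MYC level was 13.45, 15.48, 13.76 and 15.50 on replicates 1 to 4, so that, as for TERT, replicates 2 and 4 were high and replicates 1 and 3 low. The same held for WT1, at 10.31, 11.54, 10.05 and 11.77. MAX read 13.30, 13.95, 13.79 and 13.83, so that its replicates 2 and 4 were highest but replicate 3 lay close to them. Of the 13 genes 4 had both of replicates 2 and 4 above replicates 1 and 3, MYC, WT1 and MAX among them. Of all genes 18.5% did, as given above. With 4 arrays no relation between these levels and that of TERT was tested. WT1 stood at 0.81 ± 1.03 (SD, n = 4, limma adjusted p = 0.0232). Its call was lost without replicate 2 (0.55, limma adjusted p = 0.224) or replicate 4 (0.60, limma adjusted p = 0.188).

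**Figure D4:**
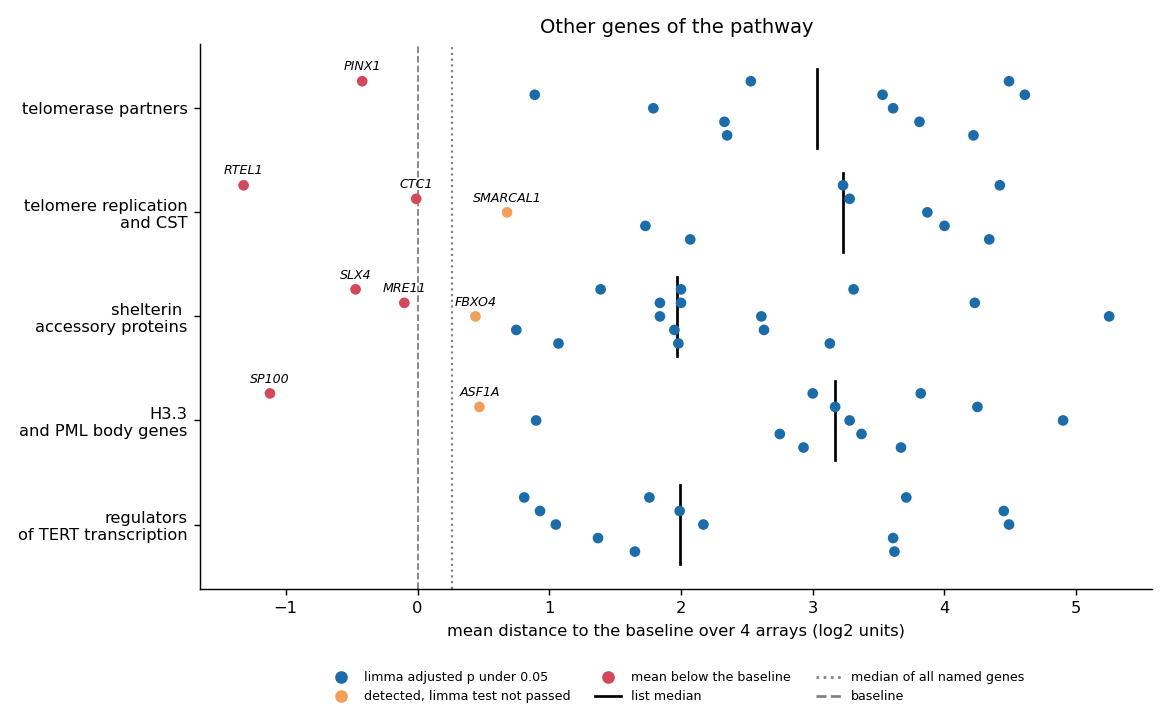
Mean distance to the baseline (horizontal axis, log2 units) of every matched gene in the 5 lists, 1 point per gene (blue past the limma test, orange detected without passing it, red below the baseline), with the list median as a black bar, the baseline as a dashed line and the median of all named genes as a dotted line. Most points lie to the right of both lines, and the red points are PINX1, RTEL1, CTC1, SLX4, MRE11 and SP100.

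The labelled origin was set against marker genes. Against 52.7% of all genes, 1 of 10 kidney epithelial markers was detected, EPCAM at 3.84 ± 0.90 (SD, n = 4). The other 9, PAX2 and PAX8 among them, were below the baseline on all 4 arrays. As for TERT, this does not show that their message is absent. Leaving out the control genes AFG2A and SPATA13 lowered the mean baseline to 7.78, where 74.0% of all genes were detected. The mean levels of CDH16, LHX1, PAX2, NPHS1 and AQP1 were 8.68, 8.67, 8.48, 8.28 and 8.02, above that value. UMOD, PAX8, SLC12A1 and SLC22A6 stayed below it, at 7.69, 6.98, 6.88 and 6.84. Of 8 neuronal markers 6 were detected and 5 passed the limma test, against 52.7% and 45.9% of all genes. ENO2 stood at 4.75 ± 0.59 and NEFL at 4.01 ± 0.56, while MAP2 was at -0.34 ± 1.40 and STMN2 at -3.12 ± 0.51, below the baseline on all 4 arrays (SD, n = 4 for each). NEFM was detected at 0.66 ± 3.08 (SD, n = 4, limma adjusted p = 0.0644) without passing, with levels of 13.57, 8.32, 13.09 and 8.08 on replicates 1 to 4.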

How the data were processed

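RNA from 4 HEK293 cultures was measured on NimbleGen arrays of long oligonucleotides designed on HG18. For each of 71998 probes a log2 value on every array was deposited by the authors. The study's methods name NimbleScan for extraction and a log2 step, and the submitters' processing notes name RMA. Sorted values coincided within 0.01 at 99.97% of ranks for replicates 1 and 2 and at 99.99% for replicates 3 and 4, and at 1.23% to 1.25% across these pairs, the form that quantile normalization within pairs gives. Raw intensities, probe sequences and the slide of each array were not used here, so background correction, saturation, cross-hybridisation and slide effects could not be tried, and the number of arrays limits the precision.

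Probe accessions were matched without versions to RefSeq genes (GRCh38.p14, names only), which named 17217 genes. Of 11 control genes listed by the study 10 matched, and PYY2 did not. Levels were averaged over the targets of a gene. Distances were tested against 0 with limma 3.58.1 in R 4.3.3, one-sided, with Benjamini-Hochberg adjustment at 0.05 over all named genes. The prior degrees of freedom were infinite, so that every gene had a standard error of 0.351, also variable genes such as ATRX, WT1 and NEFM. A shift of a baseline moves all genes of an array together. The fit was tested on simulated data with a common spread for all genes and independent arrays. That setting does not try the unequal spreads of the real genes or the distributions that arrays share. With 4 arrays the smallest p of an exact one-sided sign-flip test is 0.0625. The members and lists were chosen with earlier results of these data known, and every gene of a list could be named, except that 1 is not reported here by name. Alternatives changed the baseline, controls, summaries, normalization, arrays and prior.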

Additional observations from a re-analysis of the deposited data

Results flagged for a closer look

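The distance of E2F1 to the baseline was 2.93, 1.27, 1.25 and 1.17 on replicates 1 to 4, so that replicate 1 stood apart. Among the distances of 60 genes and the baseline this was the only one that passed Dixon's test at its 95% limit, with a gap of 0.944 as a share of the range. About 1 set in 20 passes by chance. Before subtraction the levels of E2F1 were 12.40, 11.21, 11.94 and 11.49, with a ratio of 0.391, below the limit. On the levels, not the distances, MRE11, GAR1, RTEL1 and TNKS2 passed it, with ratios of 0.89, 0.872, 0.86 and 0.846.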

How the results depend on the processing

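Among 20 other settings and 10 more chosen after the data were examined (each control gene left out), the height of the baseline moved the results most. With 3 SD 4922 genes and 5 of the 10 members passed the limma test, and 7 members were detected. The other counts over all genes, members and lists stayed within 1.5 times the reported value. Without 1 replicate 9 members were always detected, and 7 to 9 passed the test. DKC1, TERF2, TERF2IP, TINF2 and DAXX kept their call under every alternative run. Of 300 alternative values for the members 283 kept direction and call, 10 lost the call and 7 changed sign.

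These values changed sign, and the cause was not tested. With 1 SD TERT stood at 0.27, PINX1 at 0.90, CTC1 at 1.31, RTEL1 at 0.00, MRE11 at 1.22, SLX4 at 0.85 and SP100 at 0.20. With the median plus 2 MAD they stood at 0.66, 1.29, 1.70, 0.39, 1.61, 1.24 and 0.59, with olfactory receptor genes as controls at 1.03, 1.67, 2.08, 0.77, 1.99, 1.61 and 0.97, and without AFG2A and SPATA13 at 1.28, 1.91, 2.32, 1.01, 2.23, 1.86 and 1.21. Without AFG2A alone PINX1, CTC1, MRE11 and SLX4 stood at 0.42, 0.83, 0.74 and 0.37, and without SPATA13 alone at 0.24, 0.65, 0.56 and 0.19. With 3 SD POT1 fell to -0.39, ATRX to -0.18, TEP1 to -0.43, SMARCAL1 to -0.64, RAD50 to -0.57, NBN to -0.24, FBXO4 to -0.88, ASF1A to -0.84, PML to -0.42 and WT1 to -0.50. With averaged log2 probe values CTC1 stood at 0.15 and FBXO4 at -0.08, and with their median CTC1 at 0.35, MRE11 at 0.30, FBXO4 at -0.89, ASF1A at -0.06, PML at -0.17 and WT1 at -0.13. On replicates 2 and 4 alone TERT stood at 0.01 and CTC1 at 0.59, on replicates 1 and 2 alone PINX1 at 0.01, CTC1 at 0.44 and MRE11 at 0.12, on replicates 1 and 3 alone MRE11 at 0.09 and SP100 at 0.11, and on replicates 3 and 4 alone FBXO4 at -0.18 and ASF1A at -0.30. Leaving out 1 replicate gave TERT from -1.47 to -0.64, PINX1 from -0.60 to -0.16, SLX4 from -0.66 to -0.23, SP100 from -1.62 to -0.69, FBXO4 from 0.07 to 0.75, ASF1A from 0.12 to 0.92, CTC1 from -0.43 to 0.27 and MRE11 from -0.25 to 0.02. No paired analysis was possible because the series holds 1 group.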
